A study of Mus musculus with 18 samples.

Results

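Rbm3 and Cirbp encode the cold-inducible RNA-binding proteins RBM3 and CIRBP, and their transcripts were followed here through stretched and unstretched mouse skin. The 2 genes were taken by symbol from the 32285 genes counted in each of 10 single-cell mRNA libraries, and each symbol matched 1 row. They were chosen by their difference between expanded and control skin in these same libraries. That difference is therefore given as a description with no test, and so is everything computed from it.

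All the mice had surgery, with an incision near the tail and a path opened under the skin toward the neck. Expanded mice then received a hydrogel expander under the skin, which swells and stretches it, and control mice received none. Each arm has 2 libraries on day 1, 2 on day 2 and 1 on day 4, numbered by sequencing round, and an expanded and a control library of the same day and round form a pair, giving 5 pairs. The mice of an arm and round were pooled in 1 tube and their live (DAPI-negative) skin cells were sorted, so a library is a pool of animals. Strain, age and sex are not given in the sources used here.

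RBM3 and CIRBP are small proteins with an RNA recognition motif and a glycine-rich tail, and both bind many messenger RNAs and influence their stability and translation. Their transcripts are known for rising in mild cold, in many cell types, while most transcription and translation slow, and Cirbp also responds to ultraviolet light and low oxygen. CIRBP that leaves the cell is known as a damage signal for innate immune cells. Skin is a tissue whose temperature can lie under that of the body core.

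Rbm3 lies on chromosome X at 8138975 to 8145880 and Cirbp on chromosome 10 at 80165990 to 80172786 (mouse build GRCm38, GENCODE annotation). The antisense gene Rbm3os overlaps the start of Rbm3 and had 129 UMIs (unique molecular identifiers, each standing for 1 captured RNA molecule) in all kept cells, against 346833 for Rbm3. Cirbp had 32795. The sequence in front of Cirbp is shown because it holds the letters of the mild cold response element, known from the promoter of Cirbp itself. It is chr10:80167589-80167777 on the plus strand, from RefSeq on GRCm38, upstream of a RefSeq start site at 80167839 and inside an intron of a longer annotated Cirbp transcript.
Cirbp: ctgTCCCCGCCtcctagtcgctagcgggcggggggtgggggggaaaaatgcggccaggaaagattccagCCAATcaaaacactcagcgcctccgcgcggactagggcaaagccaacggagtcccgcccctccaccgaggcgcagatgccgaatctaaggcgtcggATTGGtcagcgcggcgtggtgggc
Capitals mark that element, TCCCCGCC, which begins at -247 from the start site, and the CCAAT box, which begins at -181, with its reverse complement ATTGG at -85. These 3 stretches do not overlap. On either strand, TCCCCGCC occurs in 5.38% of 32851 RefSeq windows of 300 bases around a start site and CCAAT in 37.4%. The heat shock element letters GAANNTTC and TTCNNGAA, found in 7.86% and 8.52% of windows, were not in the Cirbp windows. Another RefSeq window of Cirbp held neither TCCCCGCC nor CCAAT. No RefSeq window of Rbm3 was in the sources used here, so Rbm3 was not searched for any of these letters. A match is a match of letters only, and whether any factor bound there was not measured.

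The libraries held 1853 to 7956 kept cells each (45488 in all), and the kept cells of a library held 16696682 to 70712560 UMIs. Median UMIs per kept cell ran from 6321.5 to 11436 in control and from 7398 to 12755 in expanded libraries, and median mitochondrial shares from 2.09% to 3.1% and from 1.93% to 3.23%. Of 46988 different barcodes, 263 occurred in more than 1 library. Cells fell into 38 clusters, of which 27 were named from markers and 11 stayed unnamed. These names were rebuilt from the counts and are written "-like". The dendritic-like class was 1 cluster led by Ear2, Lyz1, Cd209e and Marco, which are also known from macrophages and monocytes. Levels are UMIs of the gene per 1000000 UMIs of a class in a library (CPM), and such a sum holds 20 or more cells.

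Summed over whole libraries, Rbm3 was higher in expanded than in control skin in 5 of 5 pairs. Its level was 446 ± 60.7 CPM (SD, n = 5 libraries, range 371 to 526) in control and 1238 ± 150 CPM (n = 5, 1013 to 1375) in expanded libraries, and the pairs' ratios averaged 2.78-fold. Cirbp was 37.5 ± 6.65 CPM (29.2 to 46.6) in control and 120 ± 35.1 CPM (78.1 to 156) in expanded libraries, averaging 3.12-fold, also with 5 of 5 pairs higher. For each gene the lowest expanded library lay above the highest control library. Cell types enter these sums in different proportions, so the levels were next taken within each class.

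Rbm3 was higher in the expanded library in 57 of 57 pairs over the 12 classes that had at least 4 libraries per arm. In 11 of these classes the arms did not overlap, and innate lymphoid or NK cell-like cells were the exception. The edgeR log2 fold change (expanded over control, adjusted for day) ran from 0.54 to 1.87, with a median of 1.40. As background, edgeR's quasi-likelihood test called, at an adjusted p of at most 0.05 in either direction, 33.1% of genes in fibroblast-like, 21.4% in macrophage or monocyte-like, 16.3% in dendritic-like and 15.7% in pericyte or smooth muscle-like cells. The share was 12.8% in basal keratinocyte-like, 10.8% in endothelial-like and 10.3% in lymphatic endothelial-like cells. It was 3.6% in dermal papilla-like, 1.56% in melanocyte-like, 0.518% in innate lymphoid or NK cell-like, 0.217% in T cell-like and 0.197% in Schwann-like cells. Nothing about the members is read from these shares, since the members were picked on the same contrast. How many of all genes had arms that did not overlap, or were higher in every pair, was not counted for libraries, clusters or mice. How usual such counts are is therefore not known here.

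**Figure D1:**
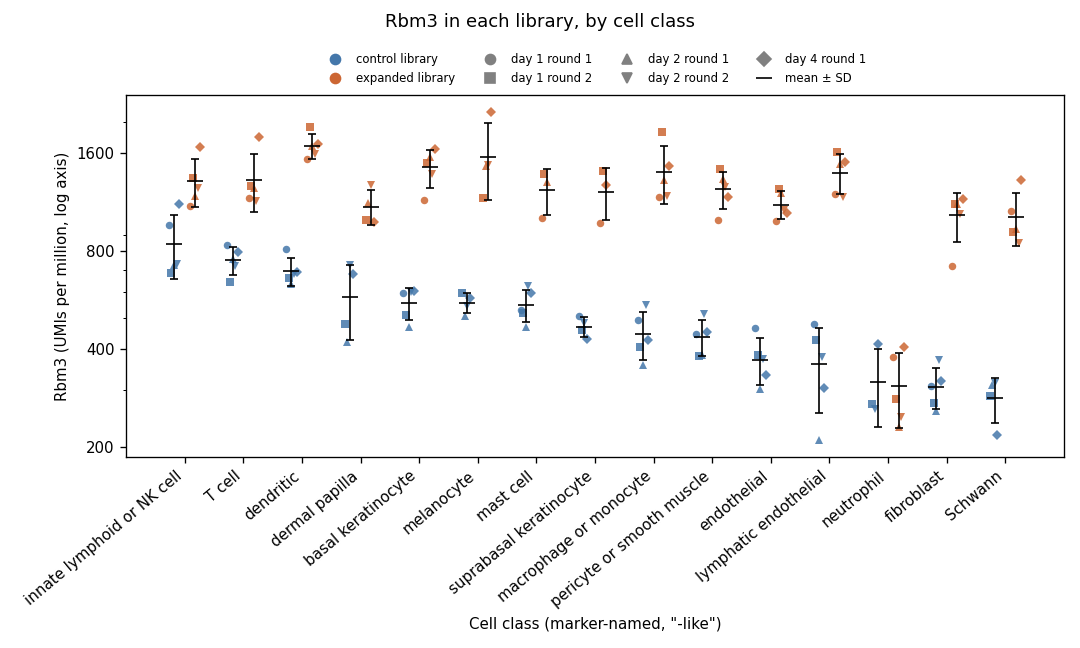
Rbm3 level (CPM, log axis) in each library for the cell classes with at least 3 libraries per arm. Points are libraries (shape shows day and round), bars the mean ± SD. Expanded libraries lie above control libraries in every class drawn except innate lymphoid or NK cell-like cells, where the arms overlap, and neutrophil-like cells, where the means are 309 and 317 CPM.

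Fibroblast-like cells, the collagen-making cells of the dermis, had among the lowest control levels of Rbm3. From day 1 round 1 to day 4, the control libraries gave 309, 274, 259, 371 and 320 CPM and the expanded libraries 722, 1117, 1119, 1043 and 1160 CPM. All 5 expanded values lay far above the control range, and the lowest of them was the day 1 library of round 1. The means were 306 ± 43.8 and 1032 ± 178 CPM (SD, n = 5 each), with a log2 fold change of 1.52 (SE 0.16).

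The largest log2 fold change of Rbm3 among the 12 classes was in lymphatic endothelial-like cells, which line the vessels that drain the skin. Control libraries there gave 478, 426, 210, 378 and 305 CPM, and expanded libraries 1204, 1614, 1484, 1173 and 1505 CPM, listed from day 1 round 1 to day 4. The arms were well apart, although the control values spread more than 2-fold. The log2 fold change was 1.87 (SE 0.19), and the ratio of a pair ran from 2.52-fold to 7.07-fold. Schwann-like cells, the glia of skin nerves, came next. Their 4 control libraries gave 288, 311, 314 and 218 CPM, and their 5 expanded libraries 1067, 916, 940, 851 and 1329 CPM, a log2 fold change of 1.81 (SE 0.21). Every expanded library was above every control library.

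Macrophage or monocyte-like cells went from 446 ± 74.3 to 1401 ± 283 CPM on average (n = 5 each, log2 fold change 1.55, SE 0.18). The 5 control libraries lay between 358 and 546 CPM and the 5 expanded ones between 1173 and 1861 CPM. Blood endothelial-like cells went from 371 ± 61.8 to 1113 ± 110 CPM (log2 fold change 1.49, SE 0.13), and pericyte or smooth muscle-like cells, which wrap the vessels, from 436 ± 55.0 to 1240 ± 163 CPM (1.39, SE 0.15). Both vessel classes had non-overlapping arms. Melanocyte-like pigment cells, with 4 libraries per arm, gave 555 ± 39.2 and 1565 ± 415 CPM (1.42, SE 0.17), and the wide expanded spread came from 1165 CPM on day 1 to 2148 CPM on day 4.

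Basal keratinocyte-like cells, of which 55.7% of control and 62.0% of expanded cells lay in a cluster led by genes also known from the hair follicle (Krt24, Lhx2, Krt15), gave 597, 509, 470, 601 and 603 CPM of Rbm3 in control libraries and 1149, 1495, 1564, 1385 and 1655 CPM in expanded libraries. The lowest expanded library was nearly 2 times the highest control library. The means were 556 ± 62.0 and 1449 ± 195 CPM, with a log2 fold change of 1.32 (SE 0.12). Dendritic-like cells gave 696 ± 68.6 and 1690 ± 150 CPM (1.06, SE 0.12) and dermal papilla-like cells, the mesenchyme at the base of the hair follicle, 578 ± 150 and 1096 ± 135 CPM (n = 4 each, 0.91, SE 0.20).

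Lymphoid classes started from the higher control levels and had the smallest log2 fold changes of Rbm3 among the 12 classes. T cell-like cells gave 838, 645, 756, 724 and 796 CPM in control libraries and 1165, 1268, 1250, 1146 and 1800 CPM in expanded libraries. The arms did not overlap, and the day 4 expanded library stood above the other expanded ones. Their log2 fold change was 0.70 (SE 0.13). Innate lymphoid or NK cell-like cells gave 966, 687, 726, 731 and 1116 CPM in control and 1102, 1350, 1186, 1256 and 1676 CPM in expanded libraries. Here the control day 4 library lay above the expanded day 1 library of round 1, although each pair was higher in its expanded library, and the log2 fold change was 0.54 (SE 0.13). Whether the classes differ from each other in the size of the difference was not tested.

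Neutrophil-like cells, the short-lived granulocytes of early inflammation, were the class where Rbm3 values of the arms lay on top of each other. Only 3 control libraries held enough of these cells, with 271, 263 and 416 CPM (317 ± 85.8) from 15 to 23 Rbm3 UMIs each, while the 5 expanded libraries gave 379, 281, 230, 249 and 408 CPM (309 ± 79.6) from 37 to 383 UMIs. Expanded was higher in 1 of 3 pairs, and the log2 ratio of a pair ran from -0.08 to 0.05. With 3 control libraries no model was fitted, and a difference from the other classes was not tested. Among classes with few libraries, mast cell-like cells gave 547 ± 63.1 (n = 5) and 1233 ± 196 CPM (n = 3), suprabasal keratinocyte-like cells 469 ± 32.1 (n = 4) and 1222 ± 221 CPM (n = 3), and hair follicle keratinocyte-like cells 1011 ± 106 (n = 4) and 2032 ± 219 CPM (n = 2). In each of these 3 classes every pair available was higher in its expanded library.

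Cirbp was higher in the expanded library in 55 of 57 pairs, and the arms did not overlap in 10 of 12 classes. Its log2 fold change ran from 0.07 to 1.55 with a median of 1.21. All its pairs were higher in 11 of 12 classes, with innate lymphoid or NK cell-like cells again the exception. The same background shares of called genes apply, and nothing is read from them here either.

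**Figure D2:**
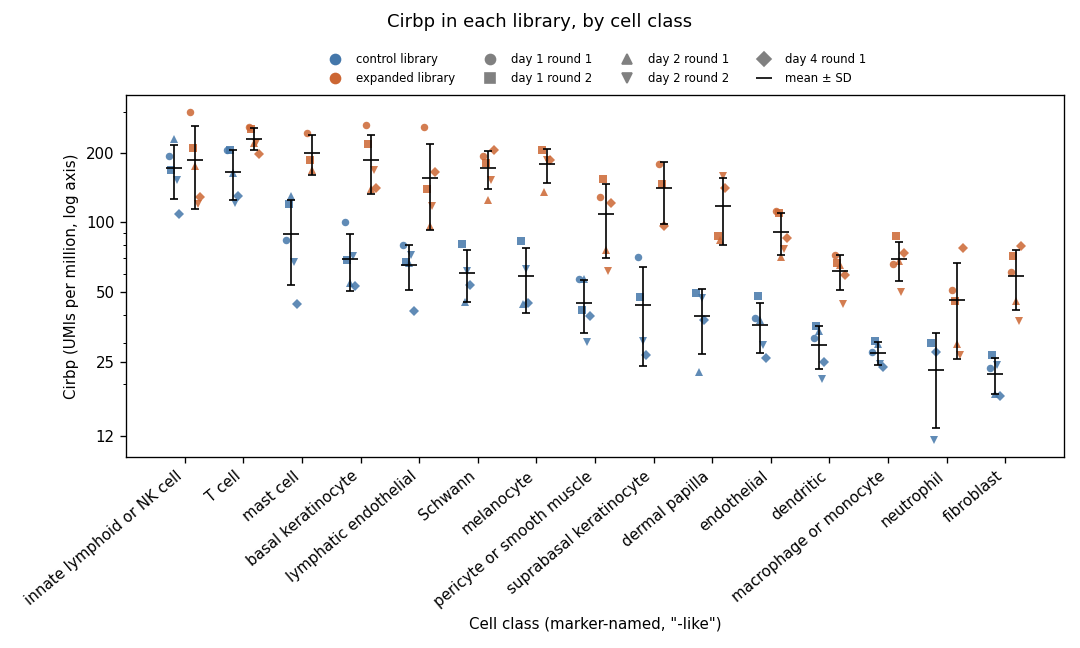
Cirbp level (CPM, log axis) in each library for the cell classes with at least 3 libraries per arm. Points are libraries (shape shows day and round), bars the mean ± SD. T cell-like and innate lymphoid or NK cell-like cells have the highest control means (166 and 171 CPM) and overlapping arms.

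In basal keratinocyte-like cells, Cirbp was 100, 69.1, 54.7, 72.0 and 53.0 CPM in control libraries and 263, 218, 139, 168 and 141 CPM in expanded libraries, from day 1 round 1 to day 4. The arms were apart, and in both of them the first library was the highest. The log2 fold change was 1.32 (SE 0.13) and the ratio of a pair averaged 2.65-fold. Melanocyte-like cells went from 59.0 ± 18.4 to 178 ± 30.3 CPM (n = 4 each), the largest Cirbp log2 fold change of the 12 classes at 1.55 (SE 0.24). Dermal papilla-like cells gave 39.4 ± 12.2 and 118 ± 37.9 CPM (1.49, SE 0.26) and Schwann-like cells 60.4 ± 15.3 and 171 ± 32.5 CPM (1.39, SE 0.20).

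Fibroblast-like cells had 23.5, 26.7, 18.2, 24.2 and 17.7 CPM of Cirbp in control libraries and 60.9, 71.4, 45.9, 37.5 and 79.1 CPM in expanded libraries. The expanded values were all higher but spread about 2-fold among themselves, lowest on day 2, and the log2 fold change was 1.17 (SE 0.16). Macrophage or monocyte-like cells had 27.3 ± 3.15 and 69.2 ± 13.5 CPM (1.24, SE 0.17), endothelial-like cells 36.1 ± 8.73 and 91.0 ± 18.8 CPM (1.27, SE 0.14), and pericyte or smooth muscle-like cells 45.0 ± 11.6 and 108 ± 38.5 CPM (1.17, SE 0.21). Lymphatic endothelial-like cells, first for Rbm3, gave 65.5 ± 14.3 and 156 ± 63.2 CPM of Cirbp (1.15, SE 0.23), and dendritic-like cells 29.5 ± 6.14 and 61.6 ± 10.6 CPM (0.86, SE 0.18).

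In the lymphoid classes the arms overlapped for Cirbp. T cell-like cells gave 206, 207, 164, 122 and 131 CPM in control and 259, 252, 220, 221 and 198 CPM in expanded libraries. Each of the 5 pairs was higher in its expanded library, but the lowest expanded value, on day 4, lay under the 2 control values of day 1, and the log2 fold change was 0.39 (SE 0.14). Innate lymphoid or NK cell-like cells gave 195, 169, 231, 153 and 109 CPM in control and 301, 209, 176, 121 and 129 CPM in expanded libraries. Both day 2 pairs were lower in their expanded library and the other 3 pairs higher, with a log2 fold change of 0.07 (SE 0.21). That value turned to -0.11 without the expanded day 1 library of round 1. It was -0.0471 without the control day 1 library of round 2 and -0.019 after thinning cells to 2000 UMIs. Within day 2 alone, the mean log2 ratio of CPM was -0.36.

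Neutrophil-like cells had 1 or 2 Cirbp UMIs in each of 3 control libraries, too few for a ratio to be read, and 5 to 73 UMIs in 5 expanded libraries, at 26.7 to 77.7 CPM. In mast cell-like cells the mean Cirbp level was 89.5 CPM in control (n = 5) and 199 CPM in expanded libraries (n = 3). Hair follicle keratinocyte-like cells had 62.2 CPM (n = 4) and 188 CPM (n = 2), and suprabasal keratinocyte-like cells 44.0 CPM (n = 4) and 141 CPM (n = 3).

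**Figure D3:**
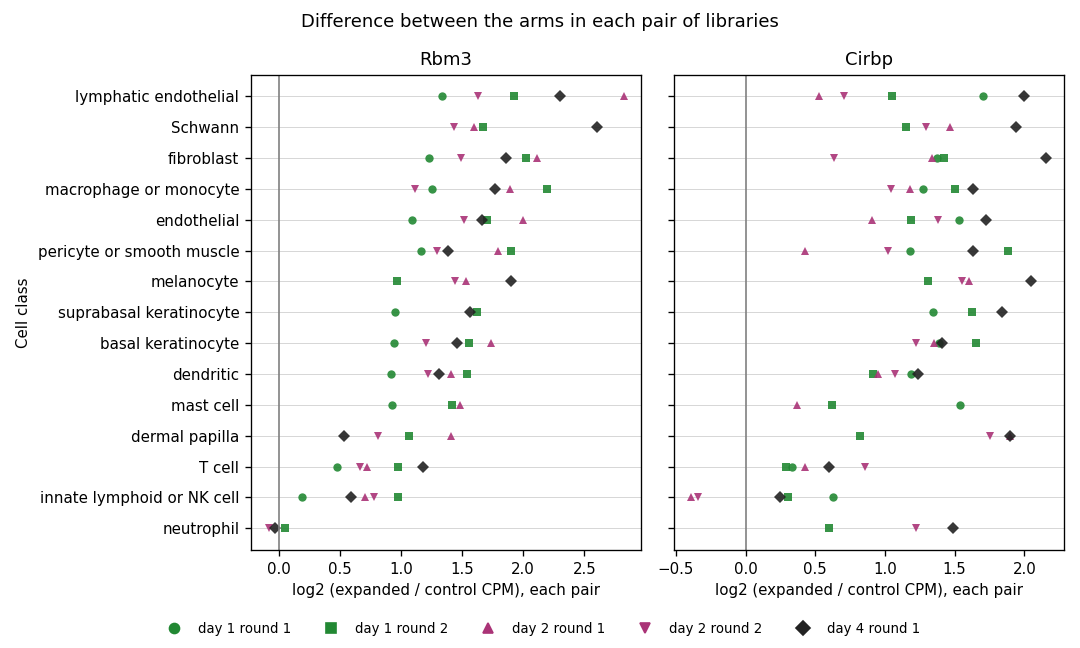
Log2 ratio of expanded to control CPM for Rbm3 (left) and Cirbp (right) in each pair of libraries, with 1 row per class that had at least 3 pairs. Points are pairs (shape and colour show day and round) and the grey line is no difference. Neutrophil-like cells lie at the line for Rbm3 (-0.08 to 0.05), and innate lymphoid or NK cell-like cells lie on both sides of it for Cirbp. The Cirbp ratios of neutrophil-like cells rest on 1 or 2 control UMIs each and are not read.

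Each gene also had its own order of levels over cell classes. Among the 17 classes with control values, Rbm3 was highest in hair follicle keratinocyte-like (1011 CPM), innate lymphoid or NK cell-like (845 CPM), T cell-like (752 CPM) and dendritic-like cells (696 CPM), and lowest in neutrophil-like (317 CPM), fibroblast-like (306 CPM) and Schwann-like cells (283 CPM). The highest class mean was 3.57 times the lowest. The hair follicle keratinocyte-like class was 1 cluster, led by Krt25, Krt28 and Krt71 together with cell cycle genes such as Ube2c and Cdk1. It does not stand for all follicle keratinocytes. Cluster 4 (Krt24, Lhx2), counted as basal keratinocyte-like, had 499 CPM of Rbm3 in control libraries. Only 1 of the 16 neighbouring steps in that order, the one under dendritic-like cells, was wider than the spread of the libraries, judged by non-overlapping ranges. It rested on 633 against 628 CPM in skeletal muscle-like cells (n = 3), and with at least 50 cells per sum the step under dendritic-like cells no longer separated neighbours. For Cirbp the order began with innate lymphoid or NK cell-like (171 CPM), T cell-like (166 CPM), mast cell-like (89.5 CPM) and basal keratinocyte-like cells (69.8 CPM) and ended with macrophage or monocyte-like (27.3 CPM), neutrophil-like (23.1 CPM) and fibroblast-like cells (22.1 CPM), a ratio of 7.76 from first to last. None of its 16 steps separated neighbours, and the neutrophil-like value rests on 1 or 2 UMIs in each of 3 libraries.

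In expanded libraries, dendritic-like cells had the highest mean Rbm3 (1690 CPM) among the 15 classes with at least 3 expanded libraries, a limit that leaves out hair follicle keratinocyte-like cells (2032 CPM, n = 2), and neutrophil-like cells (309 CPM) were the lowest and apart from the next class, Schwann-like cells (1021 CPM). The order of classes in expanded libraries correlated with that in control libraries with Spearman's rho of 0.586 for Rbm3 and 0.957 for Cirbp, as a description over classes that share libraries. The Cirbp order includes the neutrophil-like control value with its 1 or 2 UMIs per library. Among the same 15 classes, T cell-like cells had the highest mean Cirbp (230 CPM) and neutrophil-like cells the lowest (46.2 CPM). A change of order between the arms was not tested.

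By day, the median log2 ratio of the 12 classes for Rbm3 was 1.32 on day 1, 1.5 on day 2 and 1.56 on day 4, and for Cirbp 1.33, 1.06 and 1.68. Control Cirbp was lower on day 4 than on day 1 in 12 of 12 classes and lower on day 2 than on day 1 in 11 of 12. Expanded Cirbp was lower on day 2 than on day 1 in 11 of 12 classes, and higher on day 4 than on day 2 in 9 of 12. For Rbm3 the matching counts were 6 of 12 and 7 of 12 classes in control libraries and 6 of 12 and 9 of 12 in expanded libraries. On day 4, expanded Rbm3 was above its day 1 level in 7 of 12 classes and expanded Cirbp in 3 of 12. Day 4 is 1 library per arm and all classes of a library share it, so a day cannot be told apart from its libraries.

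In fibroblast-like and macrophage or monocyte-like cells, different clusters held most cells of the class in control and expanded skin. Shares also differed in other classes, such as cluster 28 of the T cell-like cells (14.5% of control and 26.5% of expanded cells). Of the 552 cells of cluster 28, however, a share of 0.5525 came from 1 expanded library, so that difference rests largely on this library. Of control fibroblast-like cells 42.1% were in cluster 0, 35.5% in cluster 1 and 13.0% in cluster 8 (led by Igfbp2, Cadps, Mme and Sema3a), while 63.3% of expanded ones were in cluster 8. Of control macrophage or monocyte-like cells 75.1% were in cluster 5, and of expanded ones 91.9% were in cluster 2 (led by Chil3, Ppbp, Arg1 and Fcgr1). Within cluster 8 alone, Rbm3 was 342 ± 43.6 CPM in control and 1109 ± 139 CPM in expanded libraries (log2 fold change 1.63, SE 0.14), and Cirbp 32.0 and 63.6 CPM (0.92, SE 0.16). Within cluster 2 alone, Rbm3 was 593 ± 55.1 and 1444 ± 279 CPM (1.21, SE 0.15) and Cirbp 23.0 and 68.4 CPM (1.55, SE 0.22). The differences of both genes were thus also seen within a single cluster of each class.

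Over the 20 clusters with enough libraries, Rbm3 was higher in all pairs in 20, without overlap of the arms in 19, and Cirbp was higher in all pairs in 18, without overlap in 14. Both basal keratinocyte-like clusters moved by similar amounts. In cluster 4 (Krt24, Lhx2) Rbm3 went from 499 to 1251 CPM and Cirbp from 95.4 to 242 CPM, and in cluster 10 (Fgfbp1, Akr1c18) Rbm3 went from 608 to 1638 CPM and Cirbp from 47.2 to 130 CPM. Some unnamed clusters had the larger log2 fold change for Cirbp. Cluster 19 (led by Ccl22, Cd207 and Il4i1) had 0.89 for Rbm3 and 1.75 for Cirbp, and cluster 3 (led by Lrrc15, Cilp and Tnn) 1.12 and 1.63. Cluster 24 (led by Ctla4 and Foxp3, genes of regulatory T cells) had 0.77 and 0.62. Differences between clusters were not tested.

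**Figure D4:**
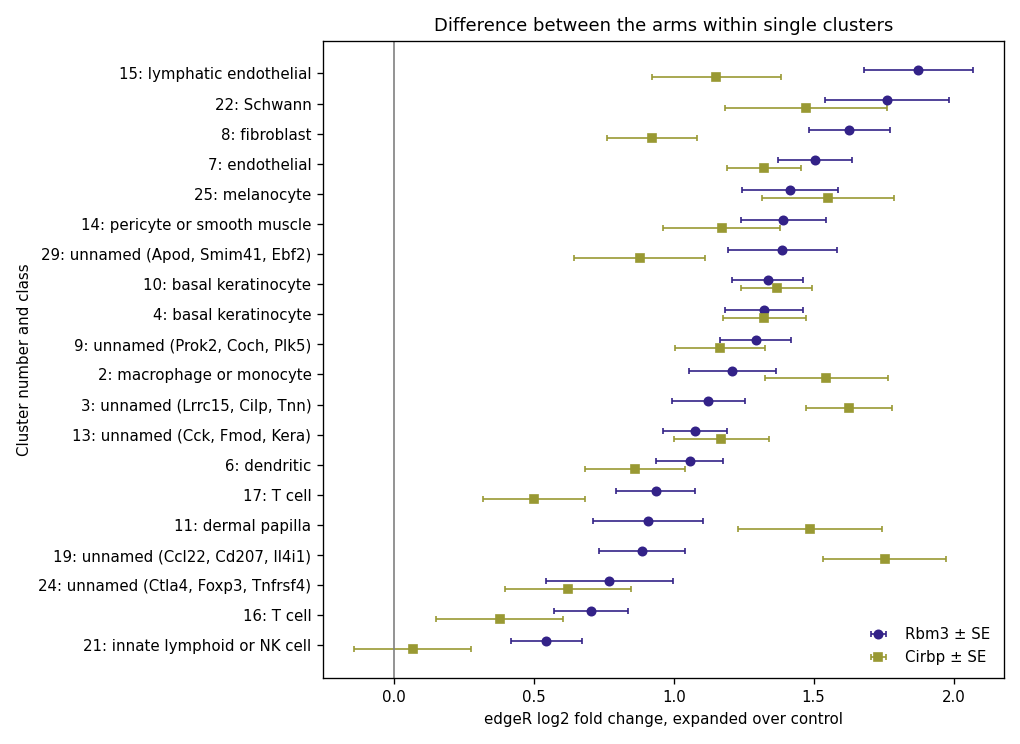
Log2 fold change of Rbm3 (circles) and Cirbp (squares), expanded over control, with its standard error, in the 20 clusters with enough libraries, ordered by the Rbm3 value. Rbm3 runs from 0.54 to 1.87, and Cirbp from 0.07 in innate lymphoid or NK cell-like cells to 1.75 in cluster 19.

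Hashtag antibodies on the cells of 14 mice per arm let the levels be taken per animal. A mouse was assigned to 21140 of the 45488 kept cells, so these sums hold only part of the cells. In basal keratinocyte-like cells on day 1, all mice lay above the round 2 library of their arm for Rbm3 (509 and 1495 CPM). For Cirbp they all lay under that library (69.1 CPM in control and 218 CPM in expanded skin). Over 15 combinations of class and day with at least 2 mice per arm that had enough cells, Rbm3 did not overlap between the arms in 15, and Cirbp in 10. The mice of an arm, day and round shared 1 library, so such gaps cannot be told apart from differences between libraries. How many of all genes show such gaps was not counted, and both genes were picked on this contrast. Basal keratinocyte-like cells gave 541 to 576 CPM of Rbm3 in 3 control and 1639 to 1852 CPM in 3 expanded mice on day 1, 625 to 684 CPM against 1408 to 1513 CPM in 4 and 4 mice on day 2, and 587 to 626 CPM against 1344 to 2037 CPM in 3 and 3 mice on day 4. The gap between the arms was many times the spread among control mice on each day. Fibroblast-like cells on day 2 gave 231 to 405 CPM in 7 control and 1133 to 1203 CPM in 3 expanded mice. Macrophage or monocyte-like cells on day 2 gave 240 to 617 CPM in 7 control and 1056 to 1503 CPM in 7 expanded mice.

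T cell-like cells were apart by arm for Rbm3 on each day, at 614 to 920 CPM in 7 control and 964 to 1292 CPM in 4 expanded mice on day 2. Their Cirbp overlapped between the arms on all 3 days. In macrophage or monocyte-like cells Cirbp on day 2 was 12.0 to 41.2 CPM in control and 34.9 to 86.9 CPM in expanded mice, with overlap at the edge. A fit over mice gave log2 fold changes of Rbm3 of 1.75 (SE 0.09) in fibroblast-like cells (14 control and 7 expanded mice) and 1.35 in basal keratinocyte-like cells (10 and 10 mice), and of Cirbp 1.48 and 1.43. That fit takes each mouse as a unit, but the mice of an arm, day and round shared 1 library. Its SE therefore leaves out spread between libraries. Neutrophil-like cells gave 214 CPM of Rbm3 in the 1 control mouse with enough cells on day 2, inside the 163 to 286 CPM of 5 expanded mice.

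**Figure D5:**
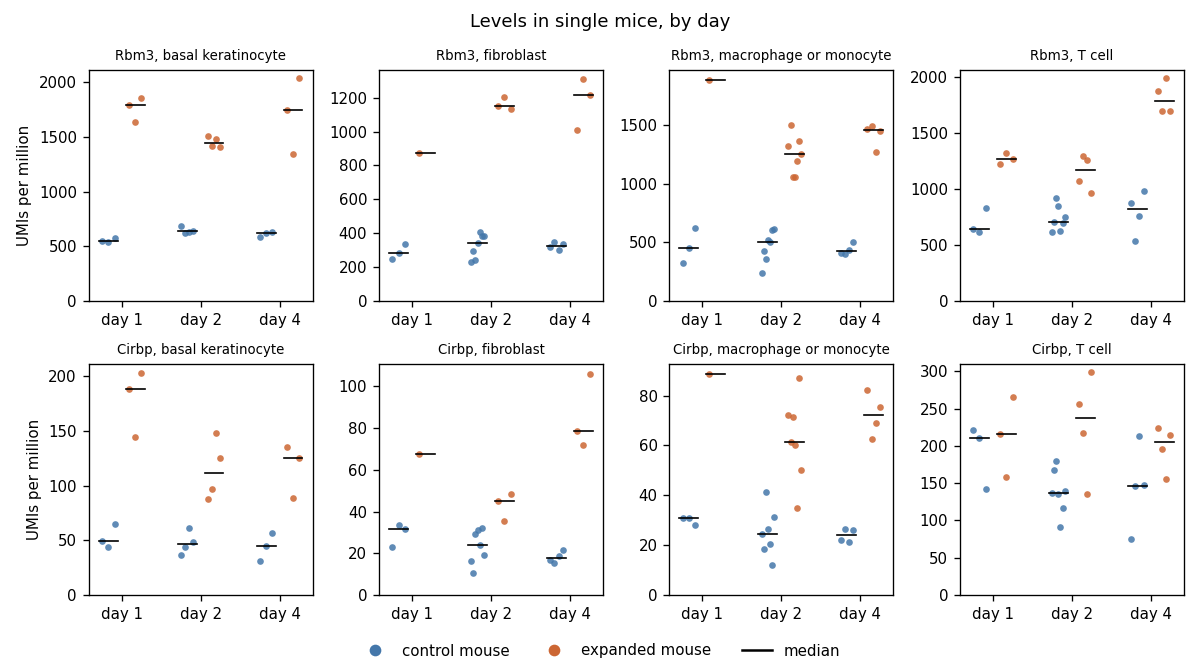
Rbm3 (top) and Cirbp (bottom) in CPM in single hashed mice with enough cells of a class, by day, for 4 classes. Points are mice and the black line is the median. Rbm3 does not overlap between the arms in any panel and day drawn, whereas Cirbp in T cell-like cells overlaps on all 3 days.

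The share of cells with at least 1 UMI shows whether a level was carried by few cells. Thinned to 2000 UMIs per cell, 43.7 ± 4.05% of control and 82.7 ± 7.69% of expanded fibroblast-like cells had an Rbm3 UMI (n = 5 libraries each), and 4.47% and 11.7% a Cirbp UMI. Unthinned, the shares were 89.3% and 97.8% for Rbm3 and 21.8% and 56.4% for Cirbp. Thinning left out 172 control and 31 expanded shallower cells and kept 8664 and 1378. In basal keratinocyte-like cells the thinned shares were 59.6% and 89.3% for Rbm3 and 12.7% and 32.0% for Cirbp, and 89.7% and 98.8% for Rbm3 unthinned. So at equal depth Rbm3 was detected in most expanded cells of both classes. No class known to lack either transcript was there to give a background share from free RNA.

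Cells of expanded skin held more UMIs than control cells in several classes. Median UMIs per fibroblast-like cell were 8400 to 14527 in control and 13191 to 22066 in expanded libraries, with median mitochondrial shares of 1.76% to 2.68% and 2.11% to 2.93%. Per macrophage or monocyte-like cell they were 4229 to 7997 and 7188 to 14974.5 UMIs. The log2 fold changes in counts from cells thinned to 2000 UMIs stayed above 0 in all 12 classes for Rbm3 and in 11 for Cirbp. The part of RNA quality in the differences was not tested.

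Over 147 class-by-library values, with each class mean taken out, the genes most like Rbm3 among 4163 were Pkm (Pearson's r 0.80), which encodes a glycolytic pyruvate kinase, Psma6 (0.78), a proteasome subunit, Cirbp itself (0.77), Psmb3 (0.76), another proteasome subunit, and Mrpl57 (0.75), of the mitochondrial ribosome. Those most like Cirbp were Rbm3 (0.77), Slc6a6 (0.68), the taurine transporter, Smim4 (0.65), Snhg3 (0.63) and Pkm (0.63). These points share libraries and arms, and both members were picked for their difference between the arms, so the values only describe. Over the 17 control class means, where the arm plays no part, Rbm3 was like Atad2 (0.84) and Reps1 (0.84), and Cirbp most like 2310033P09Rik (0.87), Clcn3 (0.86) and Ramac (0.84). Rbm3 and Cirbp correlated there at 0.53.

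Other genes of the same kind were read from lists fixed by name, which were chosen with earlier results of these data known. Their shares beside those of all genes therefore only describe. The macrophage or monocyte-like and fibroblast-like classes lay in different clusters in the arms, as given, and the part of this in their list calls was not tested. Over all genes and the 12 classes, edgeR's quasi-likelihood test with Benjamini-Hochberg adjustment called 5.72% of 107922 gene-by-class tests higher and 6.68% lower in expanded libraries. The other RNA-binding motif (Rbm) genes gave 14 higher and 15 lower of 366 tests (3.83% and 4.10%), with a median log2 fold change of -0.02. Rbm28, a nucleolar protein of ribosome assembly, rose in basal keratinocyte-like cells (0.56, adjusted p = 0.00845), and Rbms2 fell in dendritic-like cells (-1.21, adjusted p = 0.00763). The cold-shock domain genes, a separate family with its own nucleic acid binding fold, gave 3 higher and 3 lower of 47 tests. Carhsp1 was higher in macrophage or monocyte-like cells (0.79, adjusted p = 0.00952) but was called lower in 1 other class (-0.59). Both lists were near or under the share of all genes.

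Glycine-rich hnRNP and FET proteins, which share the tail type of RBM3 and CIRBP, gave 13 higher and 4 lower of 120 tests (10.8% and 3.33%, median 0.10). Among them Hnrnpd, which binds AU-rich elements, rose in fibroblast-like (0.92, adjusted p = 0.000444) and basal keratinocyte-like cells (0.87, adjusted p = 0.00252) by edgeR's quasi-likelihood test. Hnrnpa1, a splicing factor, rose in fibroblast-like cells (0.70, adjusted p = 0.00206). Of the same list, Taf15 was called lower in 3 classes (-0.82 to -0.52) and Hnrnpa2b1 in 1 (-0.67). Regulators and partners of the members gave 9 higher and 10 lower of 149 tests (6.04% and 6.71%). These shares were near those of all genes (5.72% and 6.68%), so the list as a whole is not read as changed. Prmt1, an arginine methyltransferase known to act on CIRBP, was called higher in 6 classes, 2 of which lost the call when a library was left out, with 1.21 in fibroblast-like (adjusted p = 0.000191) and 1.18 in lymphatic endothelial-like cells (adjusted p = 0.00167). Hif1a, which encodes the oxygen-regulated transcription factor subunit, rose in lymphatic endothelial-like cells (1.34, adjusted p = 0.000349) but was called lower in 1 other class (-0.58). Clk1, a kinase of splicing factors known to sense body temperature, fell in pericyte or smooth muscle-like cells (-0.71, adjusted p = 0.00349), and Trpv4, a channel gated by warmth and swelling, fell in macrophage or monocyte-like cells (-2.41, adjusted p = 0.00498).

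Receptors reported for CIRBP outside the cell gave 3 higher and 2 lower of 26 tests (11.5% and 7.69%). All 3 calls higher were Trem1 and both calls lower were Il6ra, while Tlr4 and Ly96 were called in no class. Trem1, which amplifies innate signals, rose in macrophage or monocyte-like cells (1.85, adjusted p = 0.00392), and Il6ra fell in fibroblast-like cells (-1.12, adjusted p = 0.000404). Genes of the heat shock response, which rise with heat and unfolded protein, gave 4 higher and 58 lower of 266 tests (21.8% lower, median -0.24). Hspb1, a small heat shock protein, fell in lymphatic endothelial-like cells (-1.85, adjusted p = 0.000464), and Serpinh1, the collagen chaperone, fell in basal keratinocyte-like cells (-1.05, adjusted p = 0.00166). Hspa1a, the inducible Hsp70, had a log2 fold change of -2.37 in macrophage or monocyte-like cells (adjusted p = 0.00123), where reads may be split with its near-identical copy Hspa1b. Clock genes gave 7 higher and 20 lower of 168 tests (4.17% and 11.9%), with Arntl, the core activator, lower in macrophage or monocyte-like (-2.44, adjusted p = 0.0033) and fibroblast-like cells (-1.04, adjusted p = 0.00115), all from edgeR's quasi-likelihood test.

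The time of day of each collection is not given in the sources used here, and its part in the clock counts was not tested. Without the control or the expanded day 4 library, the gene-by-class calls lower among heat shock genes became 32 or 33, those lower among clock genes 12 or 13, and those higher among hnRNP and FET genes 8 in each case. For the Rbm genes, the calls higher became 8 or 9 without the control day 1 library of either round, the expanded day 1 library of round 2, the expanded day 2 library of round 1 or either day 4 library. Their calls lower became 6 to 9 without the expanded day 1 library of round 1, the control day 1 library of round 2, the expanded day 2 library of round 2 or either day 4 library. The calls lower among regulators and partners became 3 to 6 without any 1 of 8 libraries, the exceptions being the control day 2 library of round 2 and the expanded day 1 library of round 2.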

How the data were processed

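Single cells of mouse skin were counted on 10 droplet (10x 3′) mRNA libraries, with 8 hashtag libraries beside them that mark the mouse of a cell. The authors deposited raw UMI counts per gene and barcode, made with Cell Ranger 6.1.2 on mm10, per the submitters' processing notes. Whether intronic reads were counted is not given in the sources used here.

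A barcode passed with 200 or more genes, 500 or more UMIs and a mitochondrial share no higher than 10%, and 1763 doublets, found by hashtags (Seurat 5.3.0 HTODemux, quantile 0.99) or by Scrublet, were removed. Cells were clustered (scanpy 1.11.5, 2000 variable genes without the members among them, 30 principal components, 15 neighbours, Leiden resolution 1). Clusters were named from marker lists. Counts were summed per class and library, with at least 20 cells, and expressed as CPM. Classes with at least 4 libraries per arm were fitted with edgeR 4.0.16 (quasi-likelihood, TMM, filterByExpr, terms for day and arm, Benjamini-Hochberg over all genes tested, threshold 0.05). The fit was tested on simulated data. Alternatives were DESeq2 1.42.0, other filters and scalings, thinned cells, clusters alone, single days, single mice, a replicate block and each library left out.

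The members and the gene lists were chosen with earlier results of these data known. Named list genes are, in each class and list, up to 2 called higher and up to 2 called lower with the largest change that moved the same way in every pair. Of these, the text gives some whose call held under all alternatives, picked after their values were seen for having a known role. The lower calls of Hif1a, Carhsp1, Taf15 and Hnrnpa2b1 are given beside them without this rule. The genes most like a member are the 5 with the highest correlation over all class-by-library sums and the 3 over control class means, of which 1 is not reported here.

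The labels give the replicate number as a sequencing round, so equal numbers share a round. Over 21 combinations of class and day, deviations of same-numbered libraries correlated at 0.0123 to 0.282 (median 0.139, 13 over 0.1). The p-values measure the spread between libraries, each a pool of mice. A class in a pool can be mostly 1 mouse. In the expanded day 1 library of round 2, 1 mouse gave 695 T cell-like cells, against 45 and 77 from the others. That mouse was also the only 1 there with at least 20 macrophage or monocyte-like cells (388). UMI counts limit the precision, most of all for Cirbp in small classes.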

Additional observations from a re-analysis of the deposited data

Results flagged for a closer look

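Dixon's test marked 2 of 56 groups of libraries for a member in a class and arm, and chance alone marks about 1 in 20 groups. For Rbm3 in T cell-like cells, the expanded day 4 library of round 1 stood high at 1800 CPM (1799.53), with the nearest expanded library at 1268 CPM and the other end of the group at 1146 CPM. The gap was 0.813 of the group's range. For Rbm3 in fibroblast-like cells, the expanded day 1 library of round 1 stood low at 722 CPM (722.021), with the nearest at 1043 CPM and the other end at 1160 CPM, a gap of 0.732 of the range. In both cases the outlying library still lay above all control libraries of its class.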

How the results depend on the processing

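Both genes were picked for their arm difference in these same counts, which the alternatives reuse, so values above 0 are no independent support. The log2 fold change of Rbm3 stayed above 0 in 238 of 238 alternative values (0.477 to 2.61) and that of Cirbp in 234 of 238 (-0.365 to 2.16). The 4 exceptions were Cirbp in innate lymphoid or NK cell-like cells, at -0.019 in thinned cells, -0.36 within day 2 and -0.11 to 0.21 with 1 library left out. The within-day values are mean log2 ratios of CPM, whereas the main values are TMM-scaled edgeR log2 fold changes. A shift within a day therefore mixes the day with the change of measure. For Cirbp in dendritic-like cells the log2 ratios of all pairs averaged 1.07, against 0.86 from edgeR. Values moved by more than the spread of libraries were as follows. For Rbm3 within day 4 they were 2.61 in Schwann-like, 1.18 in T cell-like, 1.31 in dendritic-like, 0.53 in dermal papilla-like and 1.90 in melanocyte-like cells, beside 1.32 in dendritic-like cells within day 2 and 0.97 in melanocyte-like cells within day 1. For Cirbp within day 4 they were 1.94 in Schwann-like, 1.24 in dendritic-like, 1.72 in endothelial-like, 2.16 in fibroblast-like, 1.99 in lymphatic endothelial-like, 1.63 in macrophage or monocyte-like and 2.05 in melanocyte-like cells. Within day 1, Cirbp gave 1.52 in basal keratinocyte-like, 1.05 in dendritic-like and 0.82 in dermal papilla-like cells, and within day 2, 0.64 in T cell-like and 1.01 in dendritic-like cells. In thinned cells Cirbp gave 1.55 in basal keratinocyte-like and 0.67 in dendritic-like cells, and in cluster 2 alone 1.55 in macrophage or monocyte-like cells.

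Counts of called genes moved more. Against 15 genes in Schwann-like, 19 in T cell-like, 29 in innate lymphoid or NK cell-like and 92 in melanocyte-like cells, DESeq2 called 40, 88, 55 and 51, and no filter on low counts 222, 294, 181 and 183. The replicate block called 96, 67 and 64 in the first 3, and gave 14 gene-by-class calls higher among regulators and partners against 9. No filter also gave 958 in dendritic-like (1446), 560 in dermal papilla-like (309) and 1792 in endothelial-like cells (1132), and, as gene-by-class calls, 9 higher for Rbm genes, 1 lower for cold-shock domain genes and 12 higher for clock genes. Cells thinned to 2000 UMIs gave 32 in T cell-like, 307 in basal keratinocyte-like (1518), 441 in dendritic-like, 402 in endothelial-like, 2037 in fibroblast-like (4282), 271 in lymphatic endothelial-like (783), 1479 in macrophage or monocyte-like (2410), 34 in melanocyte-like and 564 in pericyte or smooth muscle-like cells (1344). Thinned cells hold fewer counts. In gene-by-class calls of the lists, thinning gave 5 higher and 2 lower for Rbm genes, 0 lower for cold-shock domain genes, 2 higher for heat shock genes, 9 lower for clock genes, 3 lower for regulators, 1 higher for receptors and 2 lower for hnRNP and FET genes. The cause of the other shifts was not tested.

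With 1 library left out, genes called were 4 to 30 in Schwann-like, 10 to 38 in T cell-like, 650 to 1760 in basal keratinocyte-like, 714 to 1886 in dendritic-like, 107 to 303 in dermal papilla-like, 614 to 1142 in endothelial-like, 12 to 39 in innate lymphoid or NK cell-like, 209 to 829 in lymphatic endothelial-like, 1192 to 2807 in macrophage or monocyte-like, 45 to 127 in melanocyte-like and 544 to 1289 in pericyte or smooth muscle-like cells. List calls higher and lower were 8 to 13 and 6 to 18 for Rbm genes, 1 to 3 and 1 to 3 for cold-shock domain genes, 2 to 7 and 32 to 59 for heat shock genes, 3 to 7 and 12 to 21 for clock genes, 1 to 3 and 1 to 2 for receptors, and 8 to 13 and 2 to 4 for hnRNP and FET genes. Calls lower for regulators and partners were 3 to 11. Of 89 calls of named list genes, 39 were lost without some library and 30 in thinned cells, and 44 were lost under no alternative.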
